A study of Mus musculus with 2 samples.

Results

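The immediate early genes measured here were 10 genes of the mouse colon: Fos, Fosb, Jun, Junb, Jund, Egr1, Atf3, Ier2, Dusp1 and Zfp36. They were found in the deposited gene and transcript tables by their GENCODE symbols, and all 10 were present once, among 43346 Ensembl genes and 69691 features in all. The study profiled polyadenylated RNA of the colon in 2 libraries of 1 group, numbered by the labels as biological replicates 1 and 2. The tissue came from adult C57BL/6J mice aged 8 weeks, the sexes were given as pooled, the health state was given as unknown, and the labels name neither a treatment nor a mutation. Both libraries carry the same donor record, and the p-values below speak of these libraries alone. With a single group, the design gives the level of each gene in the tissue and a comparison of replicate 1 with replicate 2.

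Immediate early genes are transcribed soon after a cell receives a growth factor, a cytokine, mechanical strain or stress, without the need for new protein synthesis. Mitogen-activated protein kinases, directly or through kinases below them, phosphorylate factors that already sit on the promoters of these genes. Chief among the factors are the ternary complex partners of serum response factor and the cyclic AMP response element binding proteins. Many of the products are transcription factors, among them the Fos and Jun proteins that pair as AP-1, while others such as a kinase phosphatase and an mRNA decay factor limit the response. The label of transcription factors therefore fits only part of the set: Dusp1 encodes a phosphatase and Zfp36 an RNA-binding protein. Jund also stands somewhat apart in general knowledge, since its mRNA is known to be present in many resting cells.

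The libraries held 46689262 expected counts in replicate 1 and 45966841 in replicate 2. Colon markers were high in both: the sum of 7 goblet cell markers was 29467 TPM in replicate 1 and 33503 TPM in replicate 2, and that of 7 absorptive colonocyte markers was 18636 TPM in replicate 1 and 20561 TPM in replicate 2. The libraries stood apart in other cell types. All 11 pancreatic acinar markers were called higher in replicate 2, with a sum of 454 TPM in replicate 1, of which the elastase gene Cela1 gave 423, and 34986 TPM in replicate 2. Only Pla2g1b of that list was at 0 in replicate 1. All 5 red blood cell markers were also called higher in replicate 2 (525 TPM in replicate 1 and 2998 in replicate 2), as were 2 of 6 adipocyte markers, Cfd and Fabp4 (whole list 219.9 TPM in replicate 1 and 474 in replicate 2). Neither library matched the label of pooled sexes: Xist had 8721 counts in replicate 1 and 12 in replicate 2, and 4 Y-linked genes together had 0 counts in replicate 1 and 1382 in replicate 2. These are not the counts of 1 pool shared by both libraries, whatever the common donor record. By these genes replicate 1 reads as female and replicate 2 as male. Differences of sex, other differences between animals and technical differences cannot be told apart in any comparison of the libraries. The part of these differences in the results below was not tested.

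All 10 genes were detected in both libraries at a level of at least 1 TPM (a share of all transcripts, corrected for their length). Together they reached 1619.9 TPM in replicate 1 and 1344 TPM in replicate 2, with a mean of 1482 ± 195 TPM (SD, n = 2). Jund alone gave 51.6% of that sum in replicate 1 and 50.8% in replicate 2. In bulk tissue, fewer cells of a type and less RNA per cell cannot be told apart, and this holds for every level given here. When the spike-ins, mitochondrially encoded genes and acinar markers were left out of the scaling, the sum was 1682 TPM in replicate 1 and 1438 TPM in replicate 2.

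**Figure D1:**
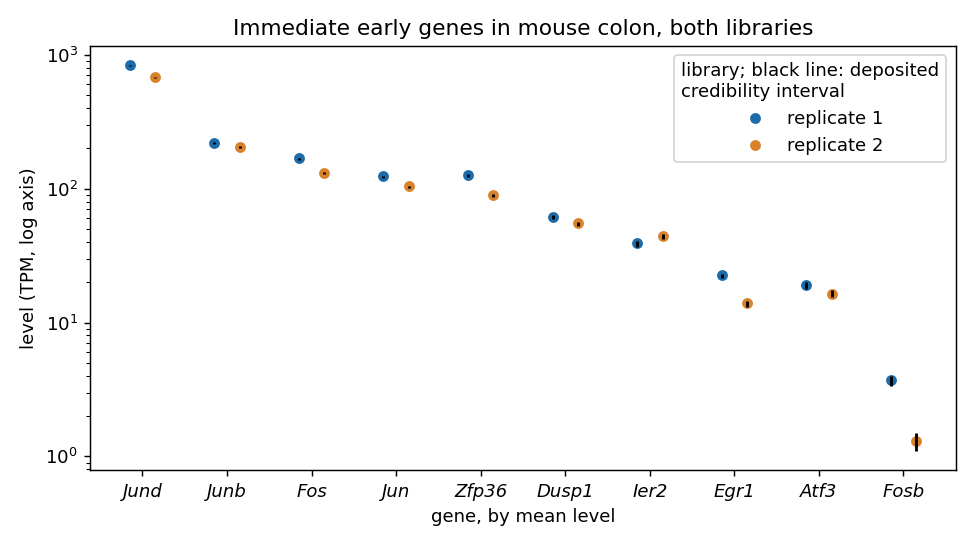
Level of each immediate early gene in TPM on a log axis, ordered by mean, with 1 dot per library and a black line for the credibility interval deposited with the value. Jund lies highest at 835 TPM in replicate 1 and 683 TPM in replicate 2. Its dots lie just above their intervals, 821 to 833 in replicate 1 and 671 to 681 in replicate 2. Fosb lies lowest at 3.70 TPM in replicate 1 and 1.30 TPM in replicate 2, and only Ier2 is higher in replicate 2.

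Jun family genes encode the obligate side of AP-1, since Jun proteins can pair with each other or with a Fos protein. Jund, the member least dependent on stimulation in other cells, had 835 TPM in replicate 1 and 683 TPM in replicate 2 (759 ± 108, SD, n = 2; ENSMUSG00000071076.5, chromosome 8, 70698949 to 70700616, plus strand, mm10). It rested on 81488 counts in replicate 1 and 65892 in replicate 2, the most of the 10 genes. Among protein-coding genes Jund ranked 130 in replicate 1 and 177 in replicate 2, and by mean level it lay in the highest 1.18% of the 12756 protein-coding genes at a mean of at least 1 TPM. Junb, which can restrain or replace Jun within AP-1, had 221 TPM in replicate 1 and 205 TPM in replicate 2 (213 ± 10.8; ENSMUSG00000052837.5, chromosome 8, 84974484 to 84978718, minus strand). Jun, the founding member and a target of Jun N-terminal kinase, had 124 TPM in replicate 1 and 104 TPM in replicate 2 (114 ± 14.1; ENSMUSG00000052684.4, chromosome 4, 95049034 to 95052222, minus strand). The counted transcript of each of the Jun genes had a single exon in the GENCODE vM21 annotation. The values of each gene in both libraries lay apart from those of the other Jun genes, in the order Jund, Junb, Jun, and Jund stood above Jun by a ratio of 6.72 in replicate 1 and 6.55 in replicate 2.

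The level of Jund depends on its transcript model. The tables used a length of 2878 bases for Jund, against 1668 bases for the same transcript in GENCODE vM21, while for Jun both annotations gave the same length. Zfp36 differed the other way, with 1792 bases in the tables and 2790 bases in vM21. A shorter model raises the TPM obtained from the same counts. By its vM21 span, each of the Jun genes is overlapped on the opposite strand by another gene. Whether the models used for counting overlap in the same way was not checked. Prdx2, over Junb, had 4828 counts in replicate 1 and 3956 in replicate 2, Gm11175, over Jund, had 164 in replicate 1 and 144 in replicate 2, and Junos, over Jun, had 20 in replicate 1 and 13 in replicate 2. The libraries were stranded, per the labels, but whether counting used the strand is not given in the sources used here. Reads of pairs that also overlap in the counted models therefore cannot be told apart with certainty.

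Fos proteins cannot pair with themselves and form AP-1 only with a Jun protein. Fos, the classic serum-induced gene, had 168 TPM in replicate 1 and 131 TPM in replicate 2 (149.6 ± 25.9, SD, n = 2; ENSMUSG00000021250.9, chromosome 12, 85473890 to 85477273, plus strand, mm10), on 11228 counts in replicate 1 and 8696 in replicate 2. Fosb, a close relative of Fos with its own activation domain, had 3.70 TPM in replicate 1 and 1.30 TPM in replicate 2 (2.50 ± 1.70; ENSMUSG00000003545.2, chromosome 7, 19302696 to 19310051, minus strand), on 479 counts in replicate 1 and 166 in replicate 2. The partners of Jun in this tissue thus differed widely in level: Fos stood above Fosb by a ratio of 45.4 in replicate 1 and 101 in replicate 2. Fosb ranked 10034 among protein-coding genes in replicate 1 and 12333 in replicate 2, while Fos ranked 845 in replicate 1 and 1061 in replicate 2. Fosl2, a Fos relative outside the set, had 63.6 TPM in replicate 1 and 60.6 TPM in replicate 2, and Fosl1 had 1.11 TPM in replicate 1 and 1.38 TPM in replicate 2.

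The promoters of Fos and Fosb are shown because these are the Fos genes among the 10, and their levels lay far apart. Each run is the 250 bases before the RefSeq start on the gene's own strand, 5′ to 3′ (RefSeq, mm10), chr12:85473640-85473889 on the plus strand for Fos and chr7:19310046-19310295 on the minus strand for Fosb. Capitals mark matches to TGACG, the core of the cyclic AMP response element, to TATAAA and to the EGR motif GCGNGGGCG.
Fos: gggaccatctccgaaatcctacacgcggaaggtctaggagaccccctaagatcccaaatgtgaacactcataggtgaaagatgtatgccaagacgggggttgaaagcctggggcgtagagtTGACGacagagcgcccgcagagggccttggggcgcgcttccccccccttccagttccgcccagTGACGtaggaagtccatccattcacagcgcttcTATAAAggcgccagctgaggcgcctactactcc
Fosb: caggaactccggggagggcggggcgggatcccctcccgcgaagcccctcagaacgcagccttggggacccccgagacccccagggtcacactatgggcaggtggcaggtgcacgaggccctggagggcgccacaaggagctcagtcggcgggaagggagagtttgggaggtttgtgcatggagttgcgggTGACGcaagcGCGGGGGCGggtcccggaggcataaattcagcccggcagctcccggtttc

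Positions count back from -1 at the base before the RefSeq start, which can differ from the start of the vM21 gene span. Fos held TGACG at -129 to -125 and at -66 to -62, and TATAAA at -33 to -28. Fosb held TGACG at -60 to -56 and the EGR motif at -50 to -42. Both strands were searched over 32851 RefSeq promoter windows of the same length. TGACG was found in 17.8% of them, TATAAA in 12.4% and the EGR motif in 4.70%. Of the 8 immediate early genes with a window, 5 held TGACG: Fos, Fosb, Junb, Atf3 and Dusp1. The AP-1 motif TGANTCA was found in 0 of the 8, against 6.75% of all windows. A match describes these letters only and is not a measured site.

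Taken as a share of the summed TPM of the 7 Fos and Jun family genes, Jund gave 58.97% in replicate 1 and 57.5% in replicate 2. Junb gave 15.6% in replicate 1 and 17.3% in replicate 2, Fos 11.9% in replicate 1 and 11.1% in replicate 2, and Jun 8.77% in replicate 1 and 8.78% in replicate 2. Fosb was a minor component, with 0.261% in replicate 1 and 0.11% in replicate 2. The summed level of the Jun genes stood above that of the Fos genes by a ratio of 4.99 in replicate 1 and 5.10 in replicate 2. These are shares of mRNA, and AP-1 protein was not measured.

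**Figure D2:**
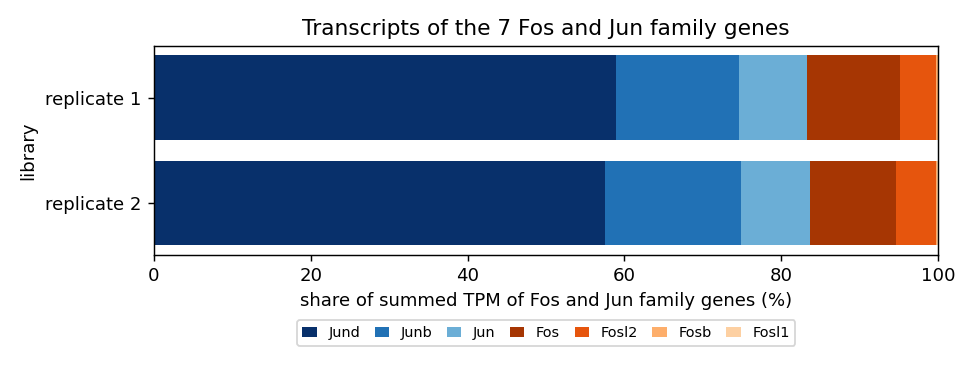
Share of the summed TPM of the 7 Fos and Jun family genes held by each gene, in percent, with 1 stacked bar per library. Jund fills 58.97% of the bar of replicate 1 and 57.5% of that of replicate 2, and the order Jund, Junb, Fos, Jun, Fosl2 is the same in both bars.

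Atf3, a stress-induced member of the ATF/CREB family that often represses its targets, had 19.0 TPM in replicate 1 and 16.4 TPM in replicate 2 (17.7 ± 1.85, SD, n = 2; ENSMUSG00000026628.9, chromosome 1, 191170296 to 191218039, minus strand, mm10). It rested on 1235 counts in replicate 1 and 1057 in replicate 2. Ier2, a small nuclear regulator named for its immediate early response, had 38.98 TPM in replicate 1 and 43.99 TPM in replicate 2 (41.5 ± 3.54; ENSMUSG00000053560.4, chromosome 8, 84661331 to 84662852, minus strand). Ier2 was the only gene of the 10 that was higher in replicate 2, on 1870 counts in replicate 1 and 2097 in replicate 2. Its level exceeded that of Atf3 in both libraries.

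Dusp1 and Zfp36 limit the response. Dusp1 encodes a nuclear phosphatase that switches off mitogen-activated protein kinases, and it had 61.7 TPM in replicate 1 and 55.0 TPM in replicate 2 (58.3 ± 4.70, SD, n = 2; ENSMUSG00000024190.6, chromosome 17, 26505590 to 26562128, minus strand, mm10). Its counts were 3886 in replicate 1 and 3439 in replicate 2. The vM21 span of Dusp1 overlaps Ergic1 on the opposite strand, which had 13662 counts in replicate 1 and 11000 in replicate 2. The longest counted Dusp1 transcript had 2313 bases, and whether the counted transcripts overlap Ergic1 was not checked. Dusp6, a cytoplasmic phosphatase of the ERK kinases, stood at a like level, with a Dusp1 over Dusp6 ratio of 0.834 in replicate 1 and 0.897 in replicate 2. Zfp36 encodes tristetraprolin, which binds AU-rich elements in 3′ untranslated regions and speeds the decay of the mRNAs that carry them. It had 126 TPM in replicate 1 and 89.7 TPM in replicate 2 (108 ± 25.6; ENSMUSG00000044786.5, chromosome 7, 28376784 to 28380253, minus strand), on 7284 counts in replicate 1 and 5148 in replicate 2. Its relative Zfp36l2 was higher than Zfp36 in both libraries, and the ratio of Zfp36 over Zfp36l2 was 0.454 in replicate 1 and 0.379 in replicate 2.

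The promoters of Dusp1 and Zfp36 are shown because they held the rarest motifs found among the immediate early genes. They lie at chr17:26508473-26508722 and chr7:28379229-28379478, both on the minus strand, and are printed as above (RefSeq, mm10). Both windows fall inside the gene spans given above, since the vM21 spans of these genes begin farther upstream. Capitals in Dusp1 mark TGACG and the full cyclic AMP response element TGACGTCA, and capitals in Zfp36 mark the EGR motif and the CArG box, which serum response factor is known to bind.
Dusp1: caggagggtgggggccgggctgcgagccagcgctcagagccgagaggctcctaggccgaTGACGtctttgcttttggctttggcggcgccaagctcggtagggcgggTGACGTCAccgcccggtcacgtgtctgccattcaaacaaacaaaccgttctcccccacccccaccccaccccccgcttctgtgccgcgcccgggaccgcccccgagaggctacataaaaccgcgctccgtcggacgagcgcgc
Zfp36: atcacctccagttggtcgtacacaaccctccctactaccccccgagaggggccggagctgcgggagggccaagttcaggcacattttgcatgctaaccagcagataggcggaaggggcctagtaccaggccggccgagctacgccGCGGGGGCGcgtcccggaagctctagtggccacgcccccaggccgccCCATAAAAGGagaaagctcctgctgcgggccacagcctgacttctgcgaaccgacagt

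Dusp1 held TGACG at -191 to -187 and TGACGTCA, which contains TGACG on either strand, at -143 to -136. Zfp36 held the EGR motif at -105 to -97 and the CArG box at -58 to -49. The full element was present in 1.55% of the 32851 windows and the CArG box in 1.47%. Within these 250 bases, no other of the 8 genes matched either of these motifs, which says nothing of sites farther away.

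The AU-rich nonamer TTATTTATT, a known recognition sequence of tristetraprolin, was searched in the 3′ untranslated regions of GENCODE vM21, and its 4 sites are shown because Zfp36 itself and its possible targets are both in the set. Each is printed with 10 bases on either side, on the gene's strand, nonamer in capitals (mm10). The Fos site lies at chr12:85477103-85477131 on the plus strand. The Dusp1 sites lie at chr17:26506159-26506187 and chr17:26505870-26505898, and the Zfp36 site at chr7:28376951-28376979, all on the minus strand.
Fos: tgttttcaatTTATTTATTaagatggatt
Dusp1, first site: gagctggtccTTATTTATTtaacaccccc
Dusp1, other site: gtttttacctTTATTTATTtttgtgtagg
Zfp36: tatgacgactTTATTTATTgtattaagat

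The nonamer was thus present in 3 of the 10 genes (30%), against 780 of 12142 genes searched (6.42%). The genes searched were protein-coding, with a mean of at least 1 TPM and an annotated 3′ untranslated region. Each was represented by its coding transcript of highest mean TPM. The shorter pentamer ATTTA was present in 9 of the 10, all but Ier2, against 61.5% of genes searched. Per kilobase of untranslated region, the 10 genes held 2.45 pentamers and 0.408 nonamers, against 1.69 and 0.0635 over all genes searched. The median length of the region was 794 bases for the 10 genes and 857 bases for all genes searched. These shares describe the annotation and were not tested. By mean level the genes carrying the nonamer, Fos, Zfp36 and Dusp1, took the 3rd, 5th and 6th places in the order of the 10.

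Egr1, a zinc finger transcription factor induced by growth factors, had 22.5 TPM in replicate 1 and 13.9 TPM in replicate 2 (18.2 ± 6.05, SD, n = 2), on 2617 counts in replicate 1 and 1650 in replicate 2. Its annotation is ENSMUSG00000038418.7, chromosome 18, 34859823 to 34864984, plus strand, mm10. It led its family in this tissue. Egr2 had 1.22 TPM in replicate 1 and 1.06 TPM in replicate 2, Egr3 had 1.63 TPM in replicate 1 and 1.76 TPM in replicate 2, and Egr4 had 0 counts in replicate 1 and 2 in replicate 2. Egr1 stood above the sum of Egr2, Egr3 and Egr4 by a ratio of 7.88 in replicate 1 and 4.88 in replicate 2.

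By mean level the order was Jund, Junb, Fos, Jun, Zfp36, Dusp1, Ier2, Egr1, Atf3 and Fosb. Of the 9 pairs of neighbours in that order, 7 had all values of the higher gene above all values of the lower gene. The values of the other 2 pairs overlapped between libraries. Jun and Zfp36 changed places, with Jun at 124 TPM and Zfp36 at 126 TPM in replicate 1, and Jun at 104 TPM and Zfp36 at 89.7 TPM in replicate 2. Egr1 was above Atf3 in replicate 1 and below it in replicate 2. The widest step between neighbours was between Atf3 and Fosb, with a ratio of means of 7.09, followed by 3.56 between Jund and Junb.

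Replicate 1 was then compared with replicate 2 gene by gene. Expected counts, rounded and scaled by TMM, were tested by an exact binomial test, two-sided, with Benjamini-Hochberg adjustment over the 17713 genes whose counts in both libraries summed to 10 or more. Calls needed an adjusted p no higher than 0.05 and a fold of at least 2 in either direction. All 10 immediate early genes passed the count filter, and the lowest, Fosb, had a summed count of 645. Of the 10 genes, 1 was called, Fosb, higher in replicate 1, against a background of 6.35% of all genes tested called in either direction and 2.55% called higher in replicate 1. The other 9 genes differed by a fold under 2.

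Fosb had 479 counts in replicate 1 and 166 in replicate 2. The libraries lay apart by a fold of 2.82 (95% counting interval 2.36 to 3.39), a log2 ratio of 1.50, with an adjusted p of 1.8e-33 by the exact binomial test. This test sees counting error only. When edgeR's exact test was used at the common dispersion estimated from both libraries, which corresponds to a biological coefficient of variation of 0.271, Fosb had an unadjusted p of 0.0106 and an adjusted p of 0.444. Under that test 0 of the 10 genes were called, against 1.35% of all genes tested, and 1 of the 10 had an unadjusted p under 0.05. Among the 6039 genes tested with a mean of 1 to 10 TPM, the range that holds Fosb, 5.12% were called by the binomial rule. With 1 library on each side, the difference has no replicate check and compares these libraries, not conditions.

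At any fold, all 10 genes had an adjusted p of at most 0.05 by the exact binomial test, as did 49.4% of all genes tested. Of these, 9 genes were higher in replicate 1, against a background of 25.6%, and 1 gene, Ier2, was higher in replicate 2, against a background of 23.8%. Deeply counted genes pass such a test more readily: among the 10141 genes that had summed counts of 645 or more, 64.2% passed and 35.99% passed with the higher value in replicate 1. The credibility intervals deposited with the TPM values, whose level is not stated, lay apart between the libraries for all 10 genes and for 35.7% of all genes tested, or 50.3% of those deeper genes.

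The sizes of the differences were small apart from Fosb and Egr1. Egr1 followed Fosb with a log2 ratio of 0.63 (95% counting interval 0.55 to 0.72), a fold of 1.55. Zfp36 had a log2 ratio of 0.47 (0.42 to 0.52). These 3 genes lay above 0.39, the 90th percentile of log2 ratios over the 13769 genes tested with a mean of at least 1 TPM, and the other 7 lay between the 10th percentile of -0.42 and the 90th. Fos had a log2 ratio of 0.34, Jund of 0.28, Jun of 0.24, Atf3 of 0.19 and Dusp1 of 0.15. Junb differed least, with a log2 ratio of 0.08 (0.05 to 0.12). Ier2 had a log2 ratio of -0.20 (-0.29 to -0.11). The median log2 ratio of the 10 genes was 0.26, against 0.01 over the genes with a mean of at least 1 TPM, of which 51.4% had a positive ratio. The median size of the ratio, whatever its sign, was 0.26 for the 10 genes and 0.19 for those genes.

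**Figure D3:**
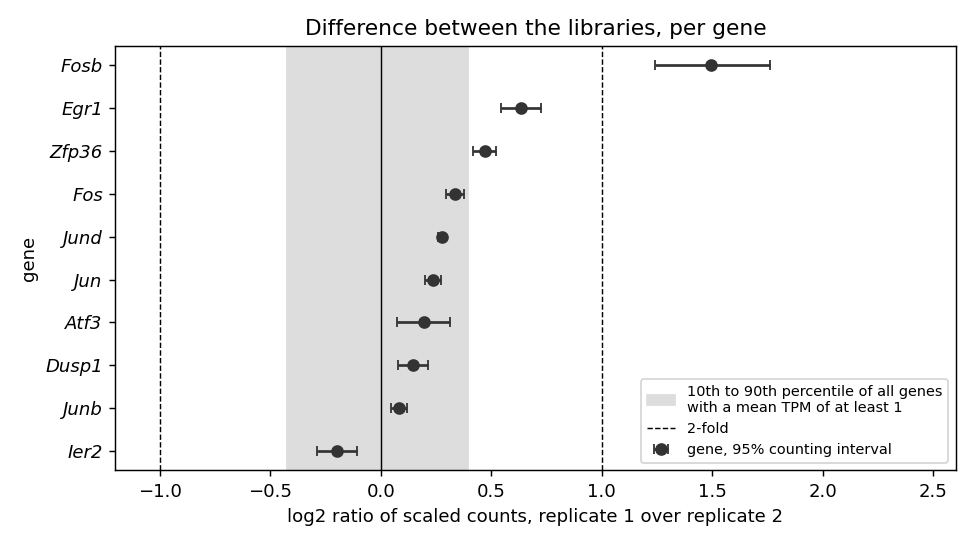
Log2 ratio of replicate 1 over replicate 2 for each immediate early gene, with bars for the 95% counting interval, dashed lines at a fold of 2 and a grey band holding the 10th to 90th percentile of genes with a mean of at least 1 TPM. Fosb at 1.50 lies past the dashed line, Egr1 at 0.63 and Zfp36 at 0.47 lie above the band, and Ier2 at -0.20 is the only gene below 0.

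Markers of other cell types did not share 1 direction with these genes. Beside the acinar, red blood cell and adipocyte markers given above, all higher in sum in replicate 2, 6 macrophage markers came to 466 TPM in replicate 1 and 429 TPM in replicate 2, and none was called. Smooth muscle markers came to 6954 TPM in replicate 1 and 6841 TPM in replicate 2, fibroblast markers to 422 TPM in replicate 1 and 511 TPM in replicate 2, and endothelial markers to 133 TPM in replicate 1 and 138 TPM in replicate 2. T cell markers were low, at 11.6 TPM in replicate 1 and 9.67 TPM in replicate 2. The B and plasma cell list came to 330.2 TPM in replicate 1 and 363 TPM in replicate 2, with Ms4a1 called higher in replicate 2. The neutrophil list came to 63.95 TPM in replicate 1 and 60.4 TPM in replicate 2, with 3 of its 5 genes at 0 in replicate 1 and Ly6g giving 63.65 TPM of the sum in replicate 1 and 59.3 TPM in replicate 2, and the enteric neuron and glia list to 81.9 TPM in replicate 1 and 71.9 TPM in replicate 2. The part of these cell types in the library differences was not tested.

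Transcript shares were deposited for each gene as the percent of its abundance given to each transcript. In 6 genes (Fosb, Ier2, Jun, Junb, Jund and Zfp36) the tables held a single transcript, so no share could vary. For Fosb this means that its shortened splice form, known from neurons, was not measured apart from the full-length mRNA. Fos was carried almost wholly by its coding transcript Fos-201, at 94.7% in both libraries. A noncoding transcript took 5.28% in replicate 1 and 5.35% in replicate 2. Atf3 was carried by Atf3-201, with 99.86% in replicate 1 and 100% in replicate 2.

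Dusp1 was divided in the same way in both libraries. Its coding transcript Dusp1-202 took 87.2% in replicate 1 and 87.6% in replicate 2. The longer of its retained-intron transcripts took 6.17% in replicate 1 and 5.89% in replicate 2, and the shorter took 6.64% in replicate 1 and 6.52% in replicate 2. Retained-intron models share intronic sequence with unspliced RNA, which these shares cannot separate.

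Egr1 showed the widest difference in shares. Egr1-202, a coding transcript of 3036 bases in 3 exons, took 75.2% in replicate 1 and 68.6% in replicate 2. Egr1-201, a coding transcript of 4484 bases in 2 exons, took 24.8% in replicate 1 and 31.4% in replicate 2. The shares therefore differed by 6.60 percentage points between the libraries. The deposited shares carry no error, so this difference in shares has no test. In TPM both transcripts were higher in replicate 1. Egr1-202 had 16.9 TPM in replicate 1 and 9.55 TPM in replicate 2. Egr1-201 had 5.57 TPM in replicate 1 and 4.36 TPM in replicate 2.

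**Figure D4:**
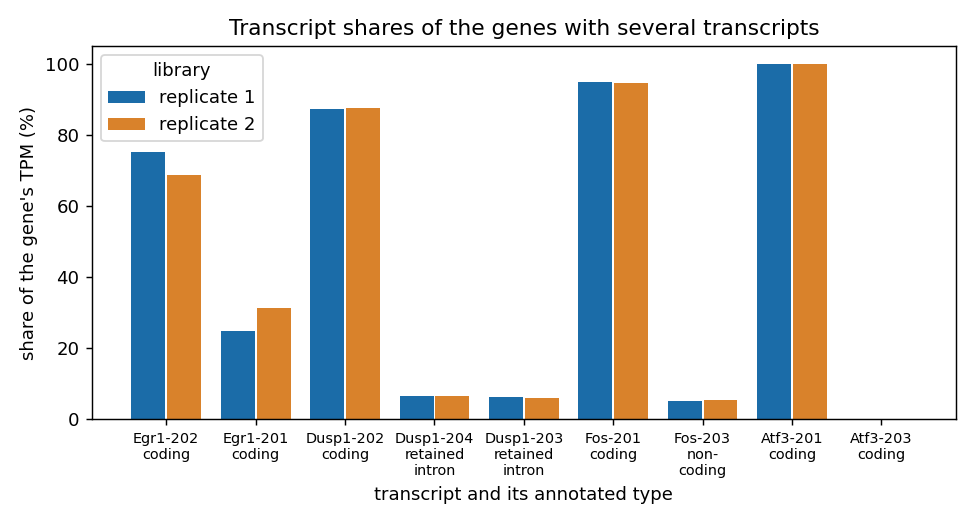
Percent of each gene's abundance given to its transcripts in the deposited tables, for the 4 genes with several transcripts, with 1 bar per library. The bars of Fos, Atf3 and Dusp1 are nearly level between libraries, while Egr1-202 stands at 75.2% in replicate 1 and 68.6% in replicate 2.

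The wider pathway was followed through 5 lists of 90 distinct genes, of which 89 could be tested, all but Egr4. By the binomial rule 0 of the 89 were called, against the background of 6.35%, and 0 by edgeR's exact test. That background includes genes with a mean under 1 TPM, and among genes at 1 to 10 TPM the share called was 5.12%. Many of the 89 had a mean above 10 TPM, a range whose share called was not computed. In the list of other AP-1 and ATF family genes, 7 of 15 were higher in replicate 1 at an adjusted p of at most 0.05 at any fold, 3 were higher in replicate 2 and 5 did not pass, with a median log2 ratio of 0.06. Atf4, the effector of the integrated stress response, was the highest of them with 142 TPM in replicate 1 and 116 TPM in replicate 2. Atf6b, a membrane-bound relative of the endoplasmic reticulum stress sensor Atf6, had 88.5 TPM in replicate 1 and 84.8 TPM in replicate 2.

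The counts at any fold in each list stand beside the background of 25.6% of all genes tested that were higher in replicate 1 and 23.8% that were higher in replicate 2, or 35.99% higher in replicate 1 among the deeper genes. Of 17 other immediate early transcription factors, 3 were higher in replicate 1, 8 were higher in replicate 2, 5 did not pass and 1 was not tested, with a median log2 ratio of -0.16. Klf4, a factor of differentiated gut epithelium, was the highest with 550.03 TPM in replicate 1 and 623 TPM in replicate 2, more than any of the 10 genes except Jund. Hes1, a Notch target that restrains secretory cell fate, had 367 TPM in replicate 1 and 402 TPM in replicate 2, although its scaled count ratio was 0.12 on the log2 scale, in the opposite direction. Srf, the serum response factor itself, had 111 TPM in replicate 1 and 101 TPM in replicate 2.

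Among 30 other immediate early regulators and effectors, 15 were higher in replicate 1 (background 25.6%), 7 were higher in replicate 2 (background 23.8%) and 8 did not pass, with a median log2 ratio of 0.14. Rhob, a small GTPase of endosomes, had 456 TPM in replicate 1 and 409.7 TPM in replicate 2. Mcl1, a short-lived inhibitor of apoptosis, had 279.6 TPM in replicate 1 and 357 TPM in replicate 2. Zfp36l2, the relative of tristetraprolin named above, had 278 TPM in replicate 1 and 237 TPM in replicate 2, and its log2 ratio of 0.21 had the same sign as that of Zfp36.

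Of 18 upstream kinases and serum response factors, 7 were higher in replicate 1, 6 were higher in replicate 2 and 5 did not pass, with a median log2 ratio of 0.05. Mapk3, which encodes the kinase ERK1, had 564 TPM in replicate 1 and 498 TPM in replicate 2. Its activating kinase Map2k2 had 286 TPM in replicate 1 and 292 TPM in replicate 2. Rps6ka1, a ribosomal S6 kinase that acts below ERK, had 176 TPM in replicate 1 and 156.5 TPM in replicate 2.

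**Figure D5:**
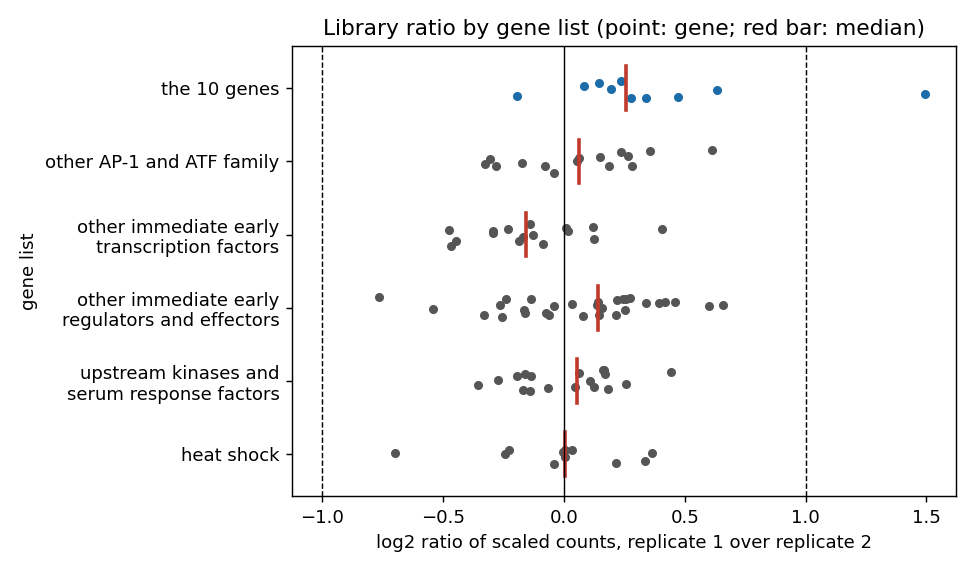
Log2 ratio of replicate 1 over replicate 2 for the 10 immediate early genes and the 5 pathway lists, with 1 dot per gene and a red bar at each list's median. The medians are 0.26 for the 10 genes, 0.06 for other AP-1 and ATF genes, -0.16 for other immediate early transcription factors, 0.14 for other regulators and effectors, 0.05 for upstream kinases and serum response factors, and 0.00 for heat shock genes.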

How the data were processed

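Polyadenylated RNA from mouse colon was measured in 2 stranded, paired-end libraries of 76 nt reads, per the labels. The deposited gene and transcript tables give an expected count per feature, TPM over all features and spike-ins, lower and upper credibility bounds, and, for transcripts, the percent of the gene's abundance, all as the authors made them. The columns are of RSEM's kind, per the file headers, on mm10 with GENCODE M4, per the deposited file notes. The aligner, the quantifier version and the strand setting of the counting were not given in the sources used here. Spike-ins took 0.895% of the expected counts in replicate 1 and 1.02% in replicate 2. They stayed out of the tests. Junction and contig files on mm9 were not used here.

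Symbols, gene coordinates, transcript types and exon counts came from GENCODE vM21. Expected counts were rounded and compared between replicate 1 and replicate 2 by a two-sided exact binomial test on TMM-scaled library sizes (edgeR 4.0.16, R 4.3.3; scipy 1.17.1), since edgeR's quasi-likelihood test could not be fitted for 1 library against 1. For genes with over 2000 counts in all, p was the exact tail taken on both sides. Log2 ratios are replicate 1 over replicate 2 with 0.5 added to each count, and intervals are exact 95% binomial intervals. Tests and intervals cover counting error only. Alternatives were DESeq2 1.42.0 size factors, unscaled totals, other count filters, 1 added to each count, edgeR's exact test, the posterior mean TPM and a rescaled TPM. In data simulated with counting error alone for replicate 1 against replicate 2, 200 of 200 genes changed by 3-fold were recovered and 1 unchanged gene was called among 17723 tested.

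The 10 genes and the lists were chosen with earlier results of these data known. Besides the 10 genes, the text names the 3 highest of each pathway list by mean TPM and any gene called. Egr2, Egr3, Egr4, Fosl1, Dusp6, overlapping genes, sex-linked genes and single markers were named to describe a value or a count. Promoters came from the RefSeq table, which matched 8 of the 10 genes, and 3′ untranslated regions from the vM21 annotation and its transcript sequences.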

Additional observations from a re-analysis of the deposited data

How the results depend on the processing

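Of the 10 genes, 1 was called under DESeq2 size factors, unscaled totals, no count filter, a summed count of at least 100 and 1 added to each count, and 0 were called under edgeR's exact test, where the adjusted p of Fosb was 0.444 (the range of its adjusted p over the other alternatives was 3.82e-34 to 2.17e-33). That test adds the spread between the libraries to counting error. The 89 pathway genes had 0 calls under all 6 alternatives. The median log2 ratio of the 10 genes stayed between 0.26 and 0.27. Their summed TPM was 1468 with the posterior mean and 1560.0 after rescaling, and ranged between 1344 without replicate 1 and 1619.9 without replicate 2. Rescaling moved Junb to 225 TPM, beyond its SD, and 5 transcript shares moved by more than their SD with the posterior mean. No paired analysis was possible because there is only 1 group. Fosb, with 166 counts in replicate 2, was the gene most limited by depth. Groups of 2 libraries cannot show an outlying sample.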

Other observations

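Heat shock genes, another rapidly induced set, were described as values beside the immediate early genes. Of 11 heat shock genes tested, 2 were higher in replicate 1 whatever the fold (adjusted p of at most 0.05, exact binomial test), 3 were higher in replicate 2 and 6 did not pass, with a median log2 ratio of 0.00. Hspa8, a constitutive chaperone, had 1762 TPM in replicate 1 and 1991 TPM in replicate 2, with a scaled count ratio of 0.01 on the log2 scale. Hspb1, a small heat shock protein of epithelium and muscle, had 514 TPM in replicate 1 and 491 TPM in replicate 2. Hsp90ab1, a constitutive chaperone of kinases, had 201 TPM in replicate 1 and 227 TPM in replicate 2 and a log2 ratio of -0.23. The inducible genes Hspa1a and Hspa1b, chosen after their values were seen, had log2 ratios of -0.04 and 0.00, and as near-identical copies they are uncertain as single genes.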
